A study of Mus musculus with 16 samples.

Results

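The 8 astrocyte arrays of a series of 16 one-colour expression arrays were compared by where they lay on their slides, 4 arrays in row 2 against 4 arrays in row 1. Row 2 held the scanner files of control 3, control 4, Klotho 3 and Klotho 4, and row 1 held those of control 1, control 2, Klotho 1 and Klotho 2. Klotho cultures had received 1 nM recombinant secreted Klotho and control cultures phosphate-buffered saline, each for 24 h. The astrocytes came from cerebral cortex of C57BL/6 mice, from pups of postnatal day 0 to 5 by the growth protocol, although the sample labels carry embryonic day 16. Flasks were shaken for 15 h to detach other cells, and the stated purity is above 98%. Separate cultures, animals or extractions are not named for the arrays, so the row is known here as a slide position and as nothing else.

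The row split was selected on the measured levels themselves, as the largest difference among these arrays by log2 intensity. Its levels, differences and counts are therefore a description, without p-values, and the only comparison that the choice did not use is that between the row differences of the slides. Control files lay on slide 2 and Klotho files on slide 3, with both rows and both columns 3 and 4 filled on each slide. The deposited value table assigns 6 of the 8 astrocyte arrays to other samples, 4 of them to the other treatment. By that table row 2 would hold controls 2 and 3 with Klotho 3 and 4, and row 1 controls 1 and 4 with Klotho 1 and 2. Each row holds 2 control and 2 Klotho arrays under both assignments. Arrays are named here by scanner file.

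Astrocytes are the star-shaped glia that take up glutamate and potassium, supply neurons with lactate and turn on inflammatory genes when stimulated. RNA in any such culture includes short, abundant messages for ribosomes and mitochondria and longer, rarer messages for signalling and structure. It also includes noncoding RNA, much of it held in the nucleus. A one-colour array reads all of these from labelled RNA at fixed probes, so the values below are levels relative to the rest of the same array. In cultured cells a smaller share of a cell type and less RNA per cell cannot be told apart.

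Each array carried 62976 spots for 55681 probes, and 0 spots were saturated. The median background-subtracted signal was 118.3 to 147.2 on row 2 arrays and 68.4 to 96.2 on row 1 arrays, without overlap. The rows overlapped in the number of spots well above background, 36512 to 39890 against 34120 to 38459, in the 99th percentile of signal, 55364.5 to 93588.7 against 58955.6 to 96938.7, and in the mean of negative control spots, 23.8 to 27.0 against 22.7 to 26.1. Levels are given as log2 intensity minus the 75th percentile of the array, so 0 is that percentile. Among units measured on all 16 arrays, the spread of log2 differences between arrays of one row (a robust SD) ran from 0.316 to 0.522 in row 2 and from 0.127 to 0.603 in row 1, and from 0.529 to 1.187 between rows. The between-row pair of Klotho 4 and Klotho 2, at 0.529, lay inside the range of pairs within row 1. Klotho 2 stood apart from the other row 1 arrays, at 0.525 to 0.603, while these 3 lay within 0.485 of each other. Results are therefore also given without Klotho 2.

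Row accounted for 54.3% of the summed squares over the 8 arrays, against 12.7% for the interaction of slide and row, 11.8% for slide and 8.6% for column. The 27966 units tested, each the brightest probe of a gene or a probe without a gene symbol, included 7052 called higher in row 2 (25.2%) and 6398 called lower (22.9%), 48.1% in either direction, by limma with slide as a term at a Benjamini-Hochberg threshold of 0.05. The 4 row 2 values lay above the 4 row 1 values in 20.9% of units and below them in 21.5%. These shares describe the split that chose the arrays, and nothing is read from them. Without Klotho 2 there were 8157 higher (29.0%) and 7625 lower (27.1%) of 28133. Without control 1 the counts were 4333 and 4266, and without control 2 they were 4469 and 4464. The centring decides the balance: with each array centred on its median, which moves the median difference of all units to -0.40 against 0.04, 3891 units were called higher and 9844 lower. Directions below are those relative to the 75th percentile, and differences between 0 and about 0.4 change sign under median centring.

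Units with a gene symbol leaned the other way from units without one. Of 15408 genes, 2267 were higher in row 2 (14.7%) and 4180 lower (27.1%), 41.8% in either direction, with a median difference of -0.17. The 4 row 2 values lay above the 4 row 1 values in 14.0% of these genes and below them in 25.1%. Protein-coding genes gave a median of -0.18, with 2092 of 14770 higher (14.2%) and 4056 lower (27.5%), 41.6% in either direction. Their rows did not overlap in 13.6% with row 2 above and in 25.5% with row 2 below.

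Probes designed to unannotated genome intervals made up the largest class on the higher side. Their names are a chromosome, a start, an end and a strand, and no gene is attached to them in the files. Of 6707 tested, 2923 were higher in row 2 (43.6%) and 509 lower (7.59%), with a median difference of 0.65. A dim probe could enter through the row where it was high, and over the 5095 above background on all 8 arrays the median was 0.44. The median level of the 6707 was -2.62, -2.67, -3.07 and -2.97 in row 2 (control 3, control 4, Klotho 3 and Klotho 4, the order kept for row 2 below), against -3.72, -3.85, -3.56 and -3.21 in row 1 (control 1, control 2, Klotho 1 and Klotho 2). The rows did not overlap, and Klotho 2 was the row 1 array nearest to row 2. Probes to the reverse strand had a median of 0.77 and probes to the forward strand one of 0.50. Where both strands of an interval were tested, both were higher in 77 of 537 intervals, one strand in 229 and neither in 231. The median over interval probes stayed positive under median centring (0.21), quantile normalization (0.31), another background correction (0.18) and without Klotho 2 (0.74).

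cDNA clones with an accession that begins with AK and no symbol moved further, with a median of 1.05 over 1319 clones (0.94 over the 1081 above background on all 8 arrays), 720 of them higher (54.6%) and 76 lower (5.76%). Named long noncoding RNA genes had a median of 0.22, with 139 of 505 higher (27.5%) and 79 lower (15.6%), but that median was -0.22 under median centring and -0.07 under quantile normalization. Probes with identifiers that begin with NAP, whose meaning the files do not give, had a median of -0.92, with 268 of 389 lower (68.9%). The panels of class and list medians show the classes separating by row on all 8 arrays, with slide 2 (the control files) further apart than slide 3.

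**Figure D1:**
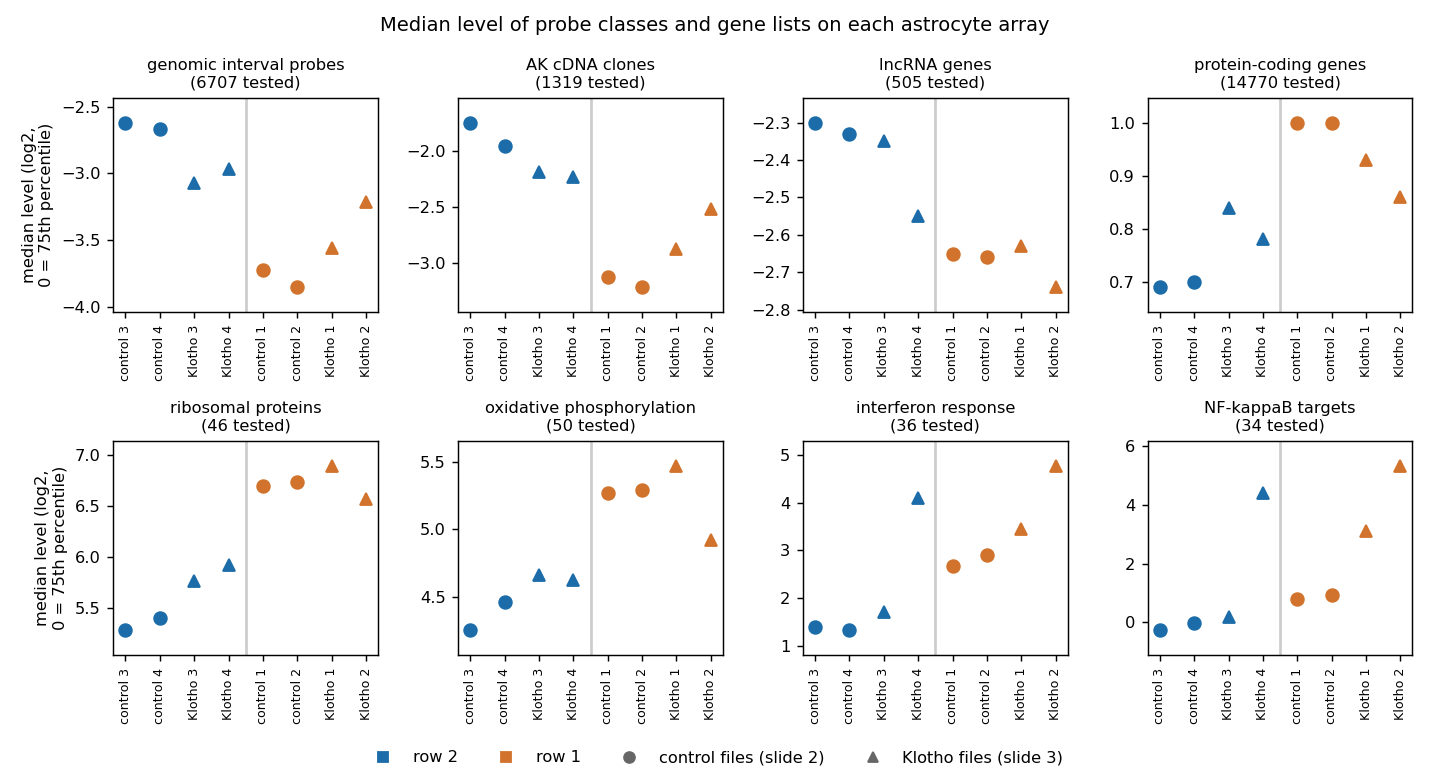
Median level (log2 intensity relative to the array's 75th percentile) of 4 probe classes and 4 gene lists on each of the 8 astrocyte arrays, row 2 left and row 1 right of the grey line, with circles for control files on slide 2 and triangles for Klotho files on slide 3. Interval probes sit at -2.62 to -3.07 in row 2 and at -3.21 to -3.85 in row 1, ribosomal protein genes at 5.28 to 5.92 and at 6.57 to 6.89, while the NF-kappaB list of Klotho 4 lies at 4.39, far from the other row 2 arrays.

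Several long nuclear RNAs were higher in row 2. They lie outside the naming rule for genes and were chosen after their values were seen. Neat1, the scaffold RNA of nuclear paraspeckles, read 7.05, 7.17, 6.90 and 6.74 in row 2, against 5.44, 5.44, 5.64 and 6.32 in row 1, a difference of 1.25 ± 0.23 (SE, n = 4 arrays per row here and below). Malat1, a nuclear speckle RNA, read 3.81, 4.58, 3.62 and 4.16 in row 2, against 2.35, 2.52, 2.12 and 3.75 in row 1 (1.35 ± 0.39), and Klotho 2 with 3.75 lay inside the row 2 range. Meg3, the maternally expressed RNA of an imprinted cluster, read 6.55, 6.81, 6.39 and 6.22 against 5.31, 5.19, 4.89 and 5.68 (1.23 ± 0.21). The rows were separate for Neat1 and Meg3 and overlapped for Malat1. Mirg, from the same cluster as Meg3, differed by 1.24 ± 0.20, and Kcnq1ot1, the antisense RNA that silences an imprinted domain, by 2.30 ± 0.56. Without Klotho 2 these differences were 1.47 for Neat1, 1.76 for Malat1, 1.43 for Meg3, 1.43 for Mirg and 2.80 for Kcnq1ot1.

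The 12 genes with the largest differences on the higher side included channel and receptor genes. Cmya5, which encodes a muscle structural protein, read 2.12, 2.30, 0.65 and 0.97 in row 2, against -2.44, -1.85, -1.91 and 0.07 in row 1, a difference of 3.04 ± 0.61. Notch1, the receptor of the Notch pathway, read 1.98, 2.13, 0.64 and 0.65 against -2.48, -2.21, -1.50 and -0.19 (2.95 ± 0.59). Trpm1, a cation channel of the retina and of pigment cells, read 3.50, 3.79, 2.31 and 2.45 against -0.55, -0.46, -0.14 and 1.63 (2.89 ± 0.57). In all 3 genes the 2 control files of row 2 were highest, the 2 control files of row 1 were low, and Klotho 2 was the highest row 1 array. Cftr, a chloride channel of epithelia, differed by 2.82 ± 0.75, Gabra2, a GABA-A receptor subunit, by 2.76 ± 0.52, and Slc16a7, the monocarboxylate carrier MCT2, by 2.69 ± 0.53. The others of the 12 were B020031M17Rik (2.81), Pnma2 (2.78), Phxr4 (2.76), Gm16523 (2.69), 6330415B21Rik (2.68) and Pou5f2 (2.66).

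Other probes of the same genes did not always move along. Another probe of Cmya5 differed by 1.59. A second probe of Notch1 differed by 1.23, one of Trpm1 by 0.75 and one of Gabra2 by 0.23, while one of Pnma2 differed by -0.70 and one of Slc16a7 by -0.62. Among the 12 genes, 6 had another tested probe and 4 of those had the same sign. Over all genes with several tested probes, all probes shared a sign in 87.6% of the 611 called higher and in 89.2% of the 1311 called lower.

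**Figure D2:**
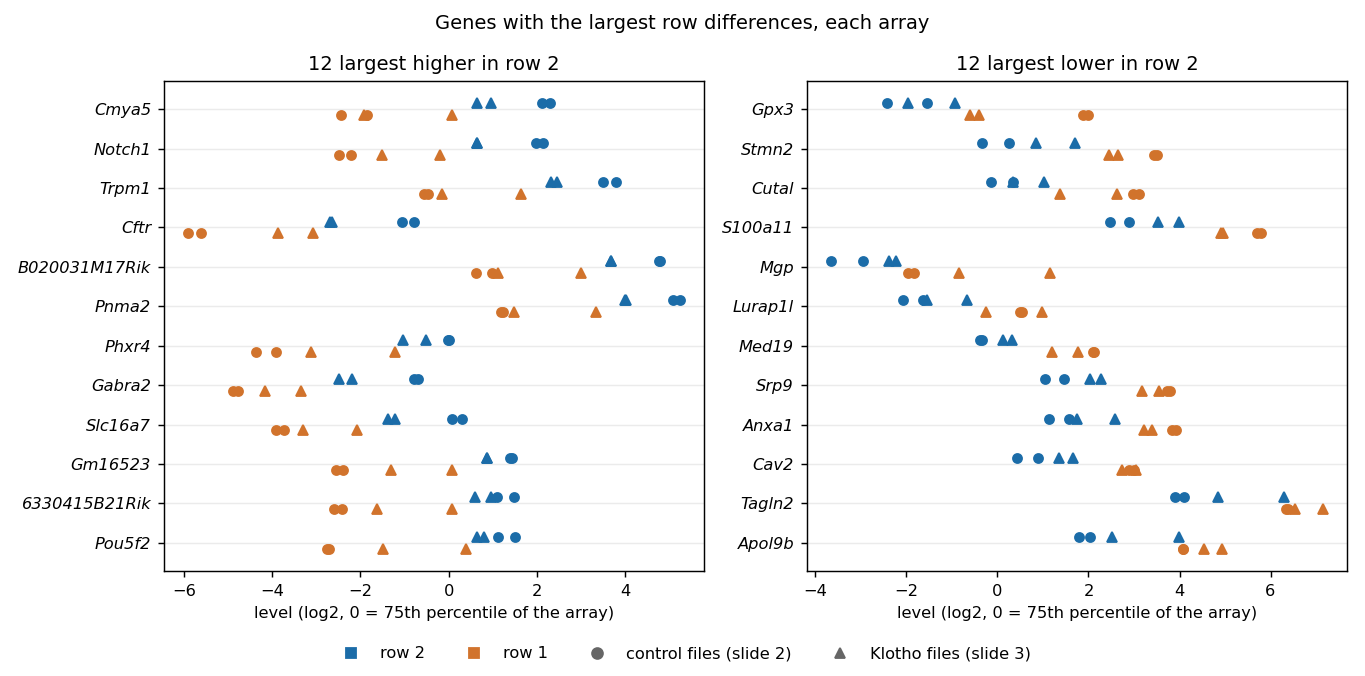
Level on each of the 8 arrays (log2 intensity relative to the array's 75th percentile) for the 12 genes with the largest difference in each direction, row 2 in blue above row 1 in orange, with circles for control files and triangles for Klotho files. Within each gene the rows do not overlap, as the rule required, and Klotho 2 is the row 1 array nearest to row 2 for all 12 genes on the higher side, such as Pnma2 at 3.35.

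Genes known from unrelated cell types shared 1 profile over the arrays. Snap25, which encodes a synaptic vesicle fusion protein of neurons, read 6.13, 6.52, 5.57 and 5.38 in row 2, against 3.83, 3.56, 4.34 and 5.23 in row 1 (1.66 ± 0.41). Fgf23, the bone hormone for which Klotho is a co-receptor, read 6.16, 6.61, 5.65 and 5.45 against 3.83, 3.56, 4.38 and 5.29 (1.70 ± 0.42). Itgam, an integrin subunit of microglia and other myeloid cells, read 6.32, 6.76, 5.88 and 5.68 against 4.17, 3.91, 4.65 and 5.52 (1.60 ± 0.39). With each gene centred on its own mean, Snap25 and Fgf23 were never more than 0.05 apart on any of the 8 arrays, and Snap25 and Itgam never more than 0.10. Lhx6, a transcription factor of interneurons, stayed within 0.30 of Snap25 and differed by 2.01 ± 0.43. Of the 27966 units, 17 stayed within 0.25 of the Snap25 profile on every array, 12 of them with a symbol. Other tested probes of Itgam differed less, by 0.58 to 1.16. On the neuron control arrays of the series, Snap25 averaged 5.09, Fgf23 4.88 and Itgam 5.07. The row 2 means here were 5.90, 5.97 and 6.16. Probe sequences were not used here, so whether these probes read the named genes was not tested. The source of the shared profile was not tested either.

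Among protein-coding genes the row difference went with the length of the gene and with its level. The shortest decile by genomic span, 165 to 4004 bases, had a median of -0.44, and the longest decile, from 125036 bases upward, one of 0.13. Of the shortest decile 39.9% were lower in row 2 and 11.4% higher, against 12.9% and 24.7% of the longest. By mean level over the 8 arrays the dimmest decile had a median of 0.23 and the brightest one of -0.51. Of the dimmest decile 8.87% were lower in row 2, and of the brightest 47.3%. The shares of gene lists below are set beside all genes, not beside genes of like level. Spearman's correlation of the difference was 0.23 with span, -0.26 with level and 0.22 with span after level was taken into account, over 14770 genes that share the same 8 arrays. The classes also differed within quintiles of level. In the dimmest quintile of all units, interval probes had a median of 0.80, lncRNA genes of 0.38 and protein-coding genes of 0.24, and in the middle quintile these were 0.44, 0.03 and -0.09. In the brightest quintile the 195 interval probes had a median of -0.34, close to -0.41 for protein-coding genes.

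**Figure D3:**
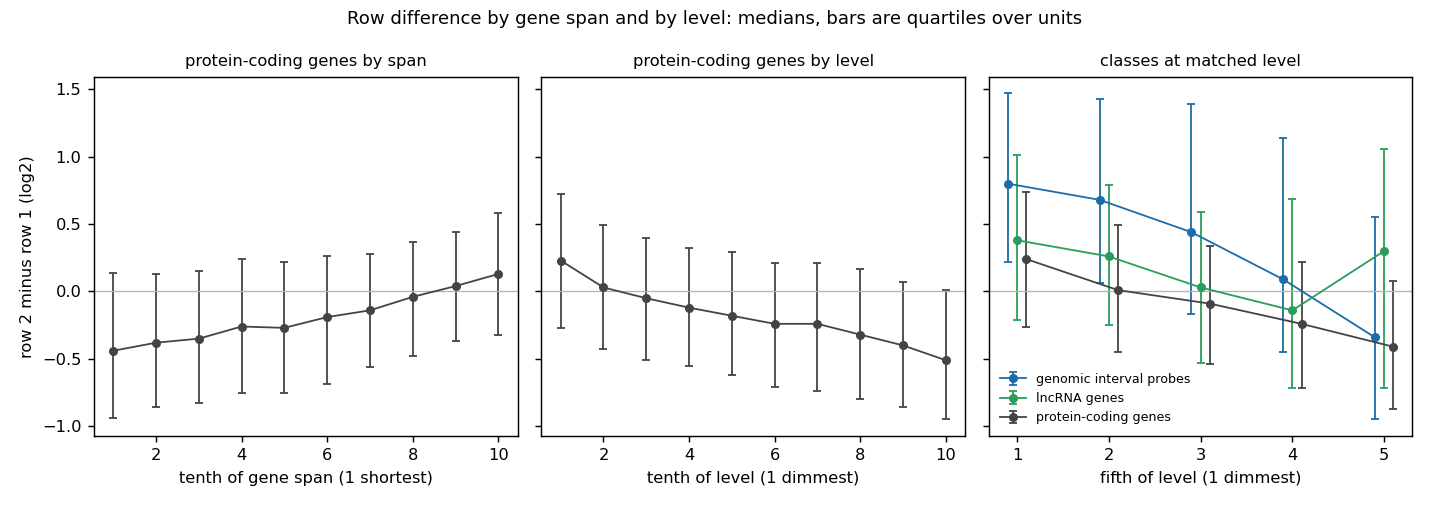
Median row difference (log2, row 2 minus row 1) with quartiles over units, for protein-coding genes by deciles of genomic span and of mean level, and for 3 probe classes by quintiles of mean level over all units. The medians climb from -0.44 to 0.13 with span and drop from 0.23 to -0.51 with level, and interval probes lie above protein-coding genes in every quintile.

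Cytosolic ribosomal protein genes encode the protein part of the ribosome. All 46 tested of 47 listed were called lower, beside 27.1% of all genes with a symbol, with a median difference of -1.06 against -0.17 over all genes and a range of -1.47 to -0.65. In each of the 46 the 4 row 2 values lay below the 4 row 1 values, beside 25.1% of all genes. Rps24, of the small subunit, read 5.72, 5.62, 6.32 and 6.51 in row 2, against 7.23, 7.07, 7.93 and 7.38 in row 1 (-1.36 ± 0.17). Rpl27, of the large subunit, read 4.73, 4.83, 5.52 and 5.80 against 6.53, 6.68, 6.93 and 6.63 (-1.47 ± 0.20). Rpl22 and Rpl14 differed by -1.29 ± 0.17 and -1.33 ± 0.19. The control files of row 2 were lowest in all 4 genes. The list median was -1.50 under median centring, -0.60 under quantile normalization, where 38 of 46 were called lower, and -1.20 without Klotho 2. In the value table, 36 were called lower.

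Transcripts of ribosomal protein genes are known to begin with a pyrimidine run, the terminal oligopyrimidine tract, through which their translation is regulated. The 30 bases around the RefSeq start (GRCm38.p6, 15 before and 15 from the start on, 5′ to 3′) are shown for the 4 genes named, because the whole family moved together. Capitals mark the motif CTTTC, the motif CTCTT, the motif CTTCC or the motif CCTTT, searched on the sense strand.
Rps24: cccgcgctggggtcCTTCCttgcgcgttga
Rpl27: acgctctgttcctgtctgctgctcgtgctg
Rpl22: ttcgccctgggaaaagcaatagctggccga
Rpl14: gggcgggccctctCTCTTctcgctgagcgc
They lie at chr14:24490663-24490692, chr11:101442230-101442259, chr4:152325711-152325740 and chr9:120571502-120571531, all on the plus strand. Of 36 ribosomal protein genes with a start entry, 17 held a motif (47.2%), against 16.9% of 27025 genes. On the opposite strand the shares were 19.4% and 17.8%. Rps24 and Rpl14 hold a motif in this window and Rpl27 and Rpl22 do not. The 4 genes were named by smallest p, and the window includes 15 bases before the start. Any relation of the tract to the row difference was not tested.

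Mitochondrial respiration genes followed. Of 50 oxidative phosphorylation genes 39 were lower in row 2 (78.0%) and 0 higher, beside 27.1% lower and 14.7% higher of all genes with a symbol, with a median of -0.76 and 49 negative differences. Under quantile normalization 18 were lower and 2 higher (median -0.24), and in the value table, 21 were lower. Ndufc2, a complex I subunit, read 4.08, 4.06, 4.87 and 4.70 in row 2, against 5.92, 5.86, 6.24 and 5.72 in row 1 (-1.51 ± 0.20). Atp5e and Atp5g3, subunits of ATP synthase, differed by -1.40 ± 0.19 and -1.09 ± 0.16, and Uqcrfs1, of complex III, by -1.25 ± 0.20. The row 2 values of Ndufc2 all lay below those of row 1. Of 29 genes of the TCA cycle and fatty acid oxidation 16 were lower (55.2%) and 0 higher (median -0.53), among them the dehydrogenase genes Idh3a (-1.03 ± 0.18) and Mdh1 (-1.08 ± 0.20).

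Glycolysis, the pathway named in the title of the series, was divided. Of 22 enzymes 8 were lower in row 2 (36.4%) and 1 higher (4.55%), beside 27.1% lower and 14.7% higher of all genes, and the list median was -0.09, but 0.16 under quantile normalization. Tpi1, triosephosphate isomerase, differed by -1.18 ± 0.22, the phosphoglycerate mutase gene Pgam1 by -1.08 ± 0.20, the lactate dehydrogenase gene Ldha by -0.82 ± 0.17 and Gapdh by -0.66 ± 0.17. Gapdh, often used as a constant reference, read 7.27, 7.23, 7.52 and 7.27 in row 2, against 7.94, 7.80, 8.34 and 7.84 in row 1, without overlap.

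Interferon response genes, which answer the antiviral interferons, were negative in 36 of 36, with 17 lower (47.2%, beside 27.1% of all genes) and a median of -1.29. Under quantile normalization 9 were lower. Their median level was 1.40, 1.33, 1.72 and 4.10 in row 2, against 2.68, 2.91, 3.44 and 4.77 in row 1. Klotho 4 was above 3 of the row 1 arrays. In 2 of the 36 genes the 4 row 2 values lay below the 4 row 1 values, beside 25.1% of all genes. Without Klotho 4, 31 of 36 were lower, with a median of -1.66, and without control 1, control 2, control 3 or control 4 it was 9, 9, 11 or 8. Ifit3, an antiviral protein gene, read 4.13, 3.88, 4.77 and 6.23 in row 2, against 6.22, 6.26, 6.59 and 6.98 in row 1 (-1.76 ± 0.35), with Klotho 4 just inside the row 1 range. Bst2, or tetherin, read 4.22, 4.06, 4.82 and 5.74 against 5.89, 5.95, 6.30 and 6.52 (-1.46 ± 0.24), without overlap. Irf9, which carries the interferon signal to the genome, differed by -0.80 ± 0.14, and the RNA sensor gene Ddx58 by -1.05 ± 0.23.

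NF-kappaB targets, the genes switched on by the main transcription factor of inflammation, had a larger median, -1.57, but 4 lower (11.8%, below the 27.1% of all genes) and 1 higher. The rows were separate in 0 of the 34, beside 25.1% of all genes with row 2 below and 14.0% with row 2 above. Under median centring 14 were lower and under quantile normalization 1. Their median level was -0.27, -0.03, 0.19 and 4.39 in row 2, against 0.81, 0.92, 3.1 and 5.32 in row 1. On slide 3, Klotho 4 and Klotho 2, both in column 4, were the highest arrays of their rows. Ccl2, a monocyte chemokine, read 0.79, 1.45, 3.46 and 8.31 in row 2, against 4.56, 4.91, 7.79 and 8.89 in row 1 (-3.04 ± 0.93). Cxcl10, a T cell chemokine, read 3.38, 2.18, 4.97 and 7.90 against 5.33, 5.43, 8.28 and 8.51 (-2.28 ± 0.59). Klotho 4 overlapped the row 1 values in both. Nfkbia, the inhibitor that NF-kappaB itself induces, differed by -1.67 ± 0.57, and Traf1 was the member on the other side (0.60 ± 0.21). Without Klotho 4, 19 were lower and 1 higher (median -2.34), without Klotho 2, 1 was lower (median -1.06), and without Klotho 3, 3 were (median -0.63). Without control 1, control 2 or control 3, 1 was lower each, and without control 4, 0 were. In antigen presentation, B2m, the light chain of class I molecules, differed by -1.24 ± 0.22 and the immunoproteasome gene Psmb10 by -1.63 ± 0.45, but 4 of 17 genes were lower (23.5%, beside 27.1% of all genes) and 1 higher.

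**Figure D4:**
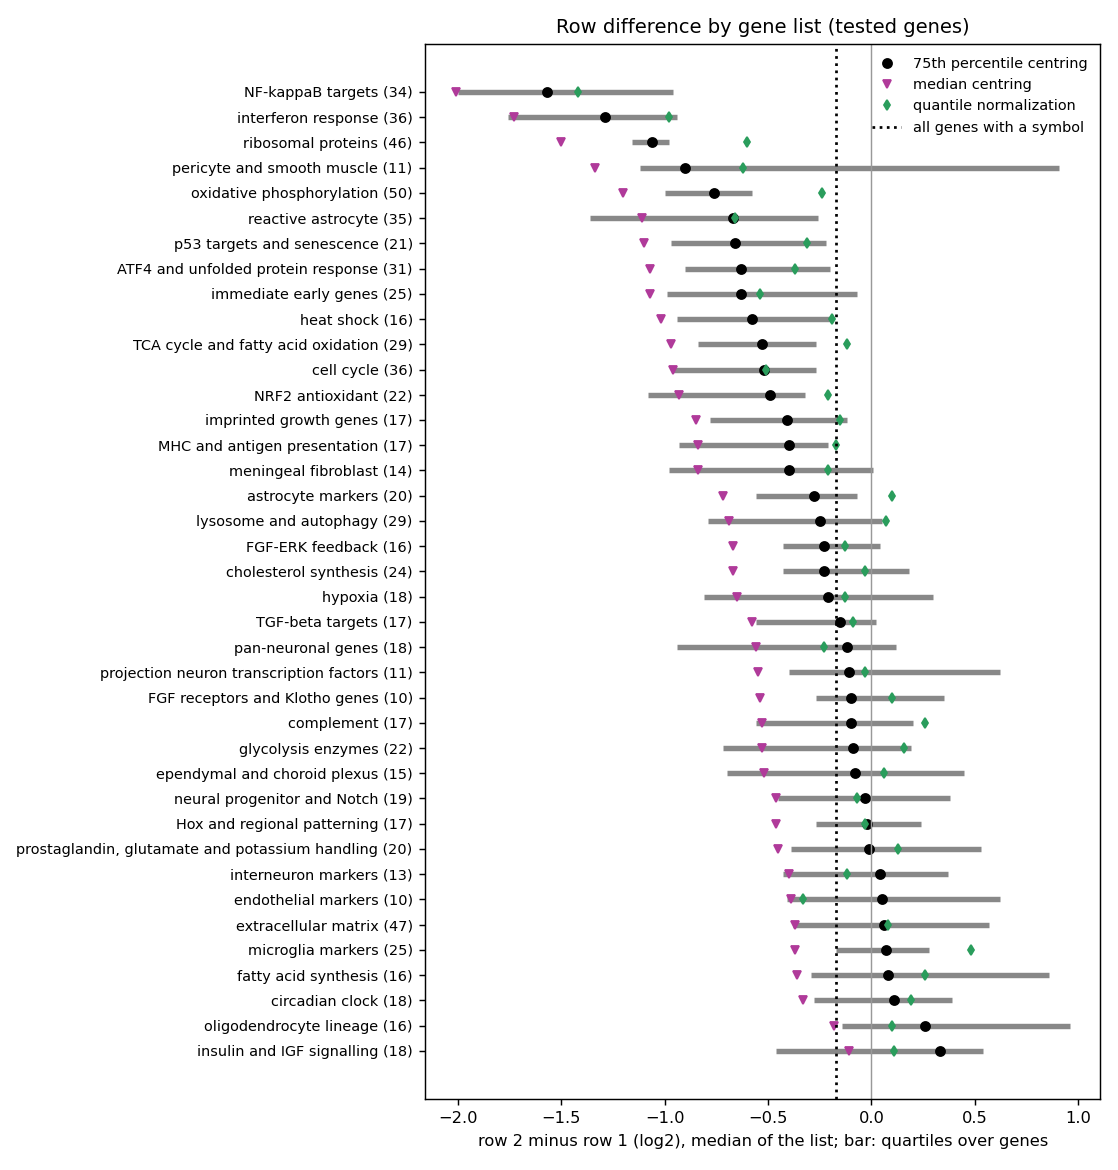
Median row difference (log2, row 2 minus row 1) of each gene list with at least 10 tested genes, black under 75th percentile centring with grey bars for the quartiles over genes, violet under median centring and green under quantile normalization; the dotted line is the median of all genes with a symbol, -0.17. NF-kappaB targets (-1.57), interferon response (-1.29) and ribosomal proteins (-1.06) lie farthest to the left, with quartiles that lie closer together for ribosomal proteins than for the other two.

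Astrocyte identity was present on every array. All 8 defining astrocyte markers were well above background on all 8 arrays, with differences of -0.97 to 0.09. Gfap, the intermediate filament of astrocytes, read 5.37, 5.81, 6.04 and 5.85 in row 2, against 6.38, 6.26, 6.67 and 6.45 in row 1 (-0.67 ± 0.16), and the calcium-binding protein gene S100b differed by -0.97 ± 0.30. The water channel gene Aqp4 (-0.67 ± 0.27), the glutamate transporter gene Slc1a3 (-0.13 ± 0.17) and Aldh1l1 (-0.29 ± 0.21) were not called. Of the 20 genes on the wider astrocyte list 5 were lower, near the 27.1% of all genes, and 0 higher, with a median of -0.28. Under quantile normalization 1 was lower and 3 were higher, with a median of 0.10. The 5 included Aldoc (-0.74 ± 0.20) and the glutamine synthetase gene Glul (-0.52 ± 0.16). Without control 1, 0 of the 20 were called, and without control 2 or control 4, 1 was. Without control 3, Klotho 1, Klotho 3 or Klotho 4, 3 were lower, and without Klotho 2, 6 were (median -0.4). Without Klotho 1 or Klotho 4, 1 was also higher.

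Reactive astrocyte genes, which mark the response to injury, included 8 lower (22.9%, beside 27.1% of all genes) and 1 higher of 35, with a median of -0.67. S100a10, an annexin partner, read 2.26, 2.72, 3.29 and 4.07 in row 2, against 5.05, 5.01, 4.53 and 4.97 in row 1 (-1.81 ± 0.34). The rows did not overlap. Emp1 differed by -1.39 ± 0.29, Srgn by -1.45 ± 0.34 and Tm4sf1 by -0.67 ± 0.16. Without Klotho 4 the list had 19 lower. Among progenitor and Notch genes, Fabp7, a fatty acid carrier of radial glia, was lower (-1.33 ± 0.17). The receptor genes Notch2 (0.87 ± 0.16) and Notch3 (0.94 ± 0.14) were higher. Of the 19 genes tested on that list 3 were higher, near the 14.7% of all genes. Only 2 were lower, a smaller share than the 27.1% of all genes. None of the 5 defining progenitor markers was called, with differences of -0.45 to 0.38.

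Markers of other cell types were measured beside these. Microglia markers were all 7 above background on all 8 arrays, despite the stated purity, and 6 were not called, among them Csf1r (0.38 ± 0.22), Cx3cr1 (0.28 ± 0.23) and Aif1 (-0.44 ± 0.34); the seventh was Itgam, described above. The 25 genes of the wider microglia list had a median of 0.07 and a median level of 2.65 to 3.40 in row 2 against 2.79 to 3.61 in row 1. Contractile genes of pericytes and smooth muscle were lower, with Myl9 at -1.38 ± 0.21, Tagln at -1.14 ± 0.23 and Acta2 at -1.09 ± 0.25, while Pdgfrb, a receptor of the same cells, was higher (0.93 ± 0.25). Of that list 6 of 11 were lower (54.5%, beside 27.1% of all genes) and 4 higher (36.4%, beside 14.7%). Fibroblast collagen genes Col1a1 (-1.0 ± 0.22) and Col3a1 (-0.94 ± 0.22) were lower, as was Dcn (-0.85 ± 0.24), and Col5a1 was higher (0.81 ± 0.17). The fibroblast markers Col1a2 (-0.26 ± 0.30), Foxc1 (-0.09 ± 0.24) and Pdgfra (0.57 ± 0.30) were not called, and Lum was not tested. Of the fibroblast list 6 of 14 were lower (42.9%, beside 27.1% of all genes) and 1 higher (7.14%, beside 14.7%). Of 47 extracellular matrix genes 8 were higher, near the 14.7% of all genes, and 5 lower (10.6%, beside 27.1% of all genes). Foxj1, of ciliated ependymal cells, was lower (-0.65 ± 0.22) and the endothelial receptor gene Flt1 higher (1.38 ± 0.25), but their lists went both ways, with 4 higher and 4 lower of 15 ependymal and choroid plexus genes and 3 higher and 2 lower of 10 endothelial genes. The endothelial markers Cldn5 and Tek were not well above background on any of the 8 arrays. The part of other cell types in the row difference was not tested.

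Neuronal genes went both ways. Stmn2, a microtubule regulator of growing axons, read -0.33, 0.25, 0.84 and 1.70 in row 2, against 3.51, 3.43, 2.46 and 2.64 in row 1 (-2.39 ± 0.46). Tubb3 (-1.15 ± 0.30), Uchl1 (-1.29 ± 0.29), Thy1 (-1.23 ± 0.27) and Syt1 (-0.88 ± 0.21) were lower too, and Map2 was higher (0.54 ± 0.16). The rows did not overlap for Stmn2, and control 1 and control 2 were its highest arrays. Of 18 pan-neuronal genes 6 were lower (33.3%) and 2 higher (11.1%), near the 27.1% lower and 14.7% higher of all genes. The 2 higher were Map2, at 0.1 under median centring, and Snap25, whose probe shared the profile described above with Fgf23 and Itgam.

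The other genes with the largest differences on the lower side encode small secreted, membrane-associated and cytoskeletal proteins among others. Gpx3, a secreted glutathione peroxidase, read -2.43, -1.54, -1.96 and -0.93 in row 2, against 2.00, 1.87, -0.60 and -0.41 in row 1 (-2.43 ± 0.60). S100a11, a calcium-binding protein gene, read 2.48, 2.90, 3.52 and 3.98 against 5.71, 5.78, 4.95 and 4.92 (-2.12 ± 0.37). Mgp, the matrix inhibitor of calcification, read -2.96, -3.65, -2.39 and -2.23 against -1.96, -1.84, 1.16 and -0.85 (-1.94 ± 0.44). Row 2 lay below row 1 in each, and for Gpx3 and S100a11 the row 1 control files were farthest from row 2, while for Mgp it was Klotho 1. The membrane-binding genes Anxa1 and Cav2 differed by -1.84 ± 0.33 and -1.83 ± 0.24, the actin-binding protein gene Tagln2 by -1.82 ± 0.37, the signal recognition particle gene Srp9 by -1.86 ± 0.29 and the Mediator subunit gene Med19 by -1.87 ± 0.27. The remaining genes were Cutal (-2.13), Lurap1l (-1.91) and Apol9b (-1.82). Of 5 of the 12 with another tested probe, 4 had the same sign, and the exception was Cav2, with other probes at -2.12 and 0.28.

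Several growth and stress lists had more members called lower in row 2 than the 27.1% lower and 14.7% higher of all genes. Among protein-coding genes the share lower also rose with level, from 8.87% in the dimmest decile to 47.3% in the brightest. The lists were not compared with genes of like level. Of 36 cell cycle genes 17 were lower (47.2%) and 0 higher (median -0.52). Cdk1, the kinase of mitosis, read -0.89, -0.77, -0.22 and -0.55 in row 2, against 0.44, 0.46, 1.34 and 0.45 in row 1 (-1.28 ± 0.21). The replication clamp gene Pcna (-1.19 ± 0.19), the cyclin gene Ccnb1 (-1.0 ± 0.18) and the cytokinesis gene Prc1 (-0.91 ± 0.15) were lower too. In the p53 and senescence list 10 of 21 were lower (47.6%) and 0 higher, among them the cell cycle inhibitor genes Cdkn2a (-1.26 ± 0.21) and Cdkn2b (-1.58 ± 0.35) and the p53 target Perp (-1.10 ± 0.18), so promoters and inhibitors of division lay on the same side.

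Of 31 genes of ATF4 and the unfolded protein response 13 were lower (41.9%) and 0 higher (median -0.63). Under quantile normalization 9 were lower and 4 higher, and without control 1, control 2 or control 3 the number lower was 7, 8 or 8. The 13 included the chaperone gene Dnajb9 (-1.45 ± 0.25), the secreted factor gene Manf (-1.08 ± 0.23) and the serine synthesis gene Psat1 (-1.12 ± 0.25). Of 16 heat shock genes 9 were lower (56.2%) and 0 higher, among them Hspe1 (-0.90 ± 0.14), Cryab (-1.17 ± 0.23) and Dnajb1 (-1.11 ± 0.21). Of 22 NRF2 antioxidant genes 7 were lower (31.8%) and 3 higher (13.6%), close to all genes, and the median was -0.01 on slide 3 and -0.98 on slide 2, with Txn1 (-1.19 ± 0.15), Prdx1 (-1.11 ± 0.21) and the heme oxygenase gene Hmox1 (-1.15 ± 0.27) on the lower side.

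Fewer lists had more genes on the higher side. Of 16 fatty acid synthesis genes 5 were higher (31.2%, beside 14.7% of all genes) and 1 lower (6.25%, beside 27.1%). Fasn, the fatty acid synthase, read 0.37, -0.02, 0.26 and -0.13 in row 2, against -1.16, -1.21, -1.51 and -0.96 in row 1 (1.33 ± 0.19). Acaca and Acacb, the acetyl-CoA carboxylases, differed by 0.84 ± 0.15 and 0.93 ± 0.19, and Mlxipl, the carbohydrate-responsive transcription factor ChREBP, by 1.56 ± 0.34. The list median was 0.08, or -0.36 under median centring, and it differed in sign between the slides, 0.19 on slide 3 and -0.07 on slide 2. For Fasn the rows were separate and the slides nearly equal, at 1.30 on slide 3 and 1.36 on slide 2.

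Clock genes moved in opposite directions. Per2, a repressor of the circadian clock, read 0.46, 0.62, 0.30 and 0.06 in row 2, against -0.63, -0.62, -1.54 and -0.84 in row 1 (1.27 ± 0.19). Per3 read -1.42, -2.12, -2.13 and -2.45 against -3.42, -3.39, -3.50 and -3.45 (1.41 ± 0.20). Cry1, their partner in repression, read -3.56, -3.44, -3.19 and -2.74 against -2.64, -2.34, -2.40 and -2.35 (-0.80 ± 0.18), and the activator gene Arntl differed by 0.46 ± 0.15. The rows did not overlap for Per2, Per3 or Cry1. Of 18 clock genes 3 were higher and 1 lower, 16.7% and 5.56% beside 14.7% and 27.1% of all genes. The list median was 0.11, or -0.33 under median centring.

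Genes of the sex chromosomes did not move together. Xist, the RNA that silences 1 X chromosome in female cells, read 2.18, 1.27, 1.43 and 0.83 in row 2, against -0.27, -0.47, -0.35 and 0.72 in row 1 (1.52 ± 0.37). The Y-linked genes Ddx3y (-0.20 ± 0.27), Eif2s3y (0.51 ± 0.31) and Uty (-0.36 ± 0.22), chosen after values were seen, were well above background on all 8 arrays and not called. The X-linked histone demethylase genes Kdm5c (0.75 ± 0.21) and Kdm6a (0.71 ± 0.17) were higher. The X-linked gene Ddx3x lay on the other side (-0.33 ± 0.14) and was not called. Of the 8 genes tested on the sex chromosome list 3 were higher (37.5%, beside 14.7% of all genes) and 0 lower. The list median was 0.39, or -0.04 under median centring. Both Xist and the Y-linked genes were therefore detected on every array.

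Most genes that receive FGF and Klotho signals were not called. Kl itself was well above background on 0 of the 8 arrays. Fgfr1 (0.28 ± 0.18), Fgfr2 (-0.05 ± 0.15) and Fgfr3 (0.37 ± 0.23) were not called, and Fgfr1 and Fgfr3 turned negative under median centring. Fgfr4 read -3.40, -2.79, -3.66 and -3.45 in row 2, against -4.62, -5.08, -3.95 and -3.54 in row 1 (0.97 ± 0.34). The row difference of Fgfr4 was 0.19 on slide 3 and 1.76 on slide 2.

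For 27 genes the level was well above background on every array of one row and on none of the other, which gives a bound in place of a fold. The bound sets the bright row's mean against each dim array's own signal or its lowest signal well above background, whichever is higher. Of 21 such genes on the higher side, the interferon gene Ifnk was at least 5.16-fold higher in row 2, the Myc antagonist gene Mxi1 at least 3.0-fold, Trcg1 at least 2.90-fold and Gm3740 at least 2.54-fold. These bounds are for row means. Klotho 4 of row 2 and Klotho 1 of row 1 nearly touched for Trcg1 (-5.43 and -5.44) and for Gm3740 (-5.28 and -5.37). Of 6 on the lower side, the defensin gene Defa42 was at least 2.45-fold lower, 1700016C15Rik at least 2.15-fold and Cldn34c4 at least 1.71-fold. For Ifng, the gene of interferon gamma, the same calculation gave 1.80-fold lower, but it was not called (-1.42 ± 0.59) and its rows overlapped. Control 3 of row 2 (-5.73) lay above control 2 (-5.78) and Klotho 2 (-5.95) of row 1, so no smallest fold can be read for Ifng.

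The row difference mostly had the same sign on both slides but not the same size. Of all units 79.8% had the same sign on slide 3 (Klotho files) and slide 2 (control files), and of the 13450 called units 100.0%, where being called favours agreement of the slides. The median size of the difference was 0.50 on slide 3 and 0.82 on slide 2, and in 73.9% of units slide 2 had the larger one. For ribosomal protein genes the median was -0.87 on slide 3 and -1.30 on slide 2, for interval probes 0.34 on slide 3 and 0.95 on slide 2, and for oxidative phosphorylation -0.63 on slide 3 and -0.92 on slide 2. NF-kappaB targets had the larger median on slide 3, -1.69, against -1.19 on slide 2. The list medians differed in sign for several lists. Among them were microglia genes, 0.32 on slide 3 and -0.12 on slide 2, and extracellular matrix genes, -0.15 on slide 3 and 0.27 on slide 2. Clock genes (0.20 on slide 3 and -0.12 on slide 2) and complement genes (0.07 and -0.27) were others, as were projection neuron transcription factors (-0.17 and 0.39). The difference between the slides, tested for each unit as an interaction of slide and row in limma, passed for 1 unit of 27966 (0.00358%), a probe without a gene name, while 6065 units (21.7%) had an unadjusted p below 0.05. The genes with the smallest p were Sirpb1b, at 1.41 on slide 3 and -1.73 on slide 2, Cacng1, at 0.37 and 3.25, and Cftr, at 0.80 and 4.84 (limma adjusted p = 0.0641 each). Without Klotho 1 the interaction called 4868 units and without Klotho 2 it called 0.

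**Figure D5:**
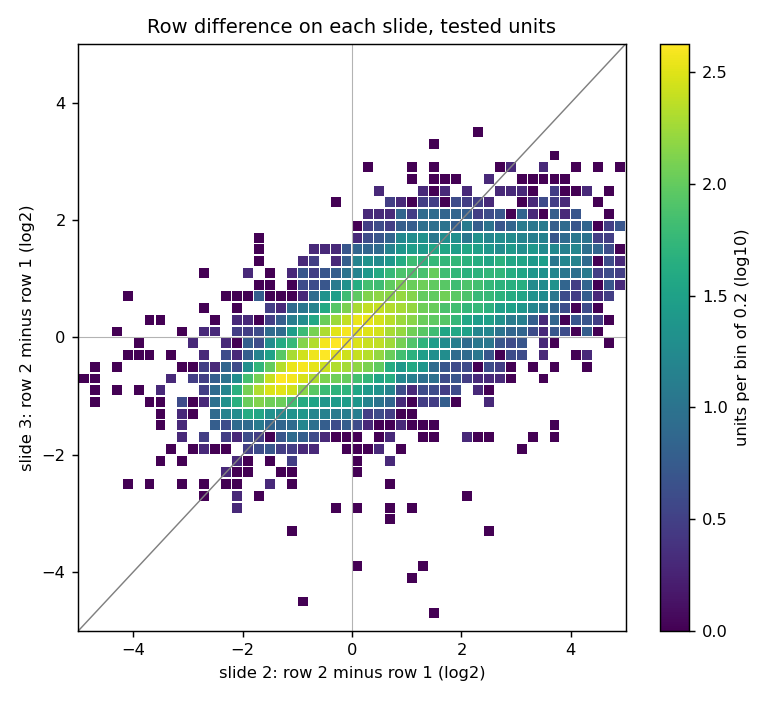
Row difference (log2, row 2 minus row 1) on slide 3, with the Klotho files, against that on slide 2, with the control files, as counts of units in bins of 0.2 on a log10 colour scale; the diagonal marks equal differences, and 27940 of 27966 units fall inside the axes. The cloud runs from lower left to upper right and is flatter than the diagonal, as slide 2 had the larger difference in 73.9% of units.

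Neuron arrays of the same series gave a view of rows on another slide, where row 2 held the 4 Klotho and row 1 the 4 control arrays, so that row and treatment cannot be told apart. There the median difference, row 2 minus row 1, was -0.03 over 28847 units, with a robust SD of 0.18. It was 0.02 for interval probes, -0.06 for ribosomal protein genes, -0.13 for oxidative phosphorylation, -0.07 for interferon response and -0.22 for cell cycle genes. The corresponding astrocyte medians were 0.65, -1.06, -0.76, -1.29 and -0.52.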

How the data were processed

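Agilent Feature Extraction 12.0.3.1 wrote the deposited scanner output, per the file headers. Its processed column is a linear intensity, per the file headers, from which background was subtracted and a spatial trend removed, with nothing done across arrays. Spots also carry 0 or 1 marks for well above background, saturation and population outliers. No unit is stated for the deposited value table, which was taken as a score, and it holds z-scores of the scanner arrays, matched to 1 array per column within 0.005. Labelling with Cy3 started from 200 ng RNA, per the labels' protocols.

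Population outlier spots were dropped, spots of a probe averaged, and log2 processed intensity set relative to each array's 75th percentile. Probes were named through RefSeq accessions (GRCm38.p6 gene table), which gave 28331 of 55681 probes (50.9%) a symbol, and the brightest probe over the 16 arrays stood for a gene. A unit entered the fit when well above background on all 4 arrays of a row. The row and interaction models used lmFit and eBayes of limma 3.58.1 (R 4.3.3), with Benjamini-Hochberg adjustment over all units. The row model had slide as a term and was tested on simulated data. The interaction model was not tested on simulated data. The number of arrays limits the precision. Replicate numbers do not pair samples across rows.

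The members, lists and tests were chosen with earlier results of these data known. The rule names the 12 called genes per direction with the largest difference, above background on all 8 arrays and without overlap, up to 4 bounds per direction, up to 4 members with the smallest p per described list, cell type markers, Klotho and FGF receptor genes, and the leading interaction genes. Alternatives were other terms, background correction, scaling, filters, probes, the value table and each array left out. The files hold a median rather than a mean signal, so the background correction used the former. Python 3.11.15 with pandas 2.3.3 and matplotlib 3.10.9 was used for summaries and figures.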

Additional observations from a re-analysis of the deposited data

Results flagged for a closer look

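In the named genes and sets, 21 of 288 groups of 4 arrays had an array apart from the other 3 by Dixon's criterion, where chance gives about 5% of groups, and 7 of the 21 were Klotho 2 and 6 Klotho 4. In row 2, Klotho 4 was apart in the median of NF-kappaB targets (4.39, others -0.27 to 0.19), of interferon response (4.10, others 1.33 to 1.72) and of reactive astrocyte genes (3.83, others 1.59 to 1.93), and in Nfkbia (6.68), Traf1 (5.47) and Acacb (1.54). Control 3 was apart in Ifnk (-2.23), Defa42 (-7.45) and Cryab (4.70), control 4 in Glul (3.17) and Klotho 3 in Gapdh (7.52).

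In row 1, Klotho 2 was apart in Pnma2 (3.35, others 1.18 to 1.47), Pgam1 (5.39), Xist (0.72, others -0.47 to -0.27), Ddx3y (1.12), Cryab (5.77), Pdgfrb (2.02) and Foxj1 (5.29). Klotho 1 was apart in Atp5g3 (6.46), S100a10 (4.53) and Cdk1 (1.34).

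The row difference was unlike on the slides for 1 probe without a gene name, A_55_P2028852, at 0.85 on slide 3 and 4.78 on slide 2, an interaction of -3.93 ± 0.26 (SE, limma adjusted p = 0.0457).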

How the results depend on the processing

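The counts of units called depended on the scaling and on single arrays. Against 7052 higher and 6398 lower, another background correction gave 4438 higher, median centring 3891 higher and 9844 lower, and leaving out 1 array gave 4333 to 8157 higher and 4266 to 7625 lower. No design term, filter, probe choice or value table moved either count by over 1.5 times. The replicate number as a random block (correlation -0.13) gave 7807 higher and 6933 lower, and it shares only a number between treatments within a row. The interaction of slide and row, 1 unit, became 253 with the replicate block and 2811 with the other background correction, and 0 with median centring, quantile normalization, no filter or units above background on all 8 arrays; leaving out 1 array gave 0 to 4868. The causes were not tested. Of 133 named genes 86 kept direction and side of the threshold under the 18 alternatives with a test. Of uncalled genes, Fgfr1 (-0.15), Fgfr3 (-0.07), Csf1r (-0.05) and Cx3cr1 (-0.16) changed sign under median centring, Fgfr2 (0.02), Slc1a3 (0.38) and Aldh1l1 (0.27) under quantile normalization, and the same 3 in the value table (0.00, 0.07 and 0.03). Sirpb1b (-0.16) was 0.09 to 0.21 without one of the control arrays and down to -0.54 without a Klotho array. The 4 arrays per row, and dim probes near background, limit what can be told apart.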

Other observations

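Lists not described above lay on both sides of the median of all genes, -0.17. Imprinted growth genes had a median of -0.41, hypoxia genes -0.21, oligodendrocyte lineage genes 0.26 and insulin and IGF signalling genes 0.33, with the last 2 negative under median centring (-0.18 and -0.11). Immediate early genes had a median of -0.63, with 3 of 25 lower and 1 higher, lysosome and autophagy genes -0.25 (0.07 under quantile normalization), with 11 of 29 lower and 2 higher, and cholesterol synthesis genes -0.23, with 3 of 24 lower. Complement genes (-0.10, or 0.26 under quantile normalization), TGF-beta targets (-0.15) and FGF-ERK feedback genes (-0.23) had at most 3 called members in either direction. Their shares were at most 17.6% lower and at most 6.25% higher.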
